A study of Homo sapiens with 12 samples.

Results

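The genes described are 10 components of the pathway by which the secreted or membrane-bound ligand TRAIL and the receptor FAS can trigger cell death: TNFSF10, which encodes TRAIL, the receptor genes TNFRSF10A, TNFRSF10B, TNFRSF10C, TNFRSF10D and FAS, the adaptor gene FADD, the initiator caspase genes CASP8 and CASP10, and CFLAR, which encodes their inhibitor c-FLIP. They were chosen by name, and each was read from a probe set annotated to it and to no other gene, taking the probe set with the highest mean over the 12 arrays where a gene had more than 1. By that rule 9 of the 10 genes were measured, out of 18404 genes in all. The single probe set of TNFRSF10C is annotated to a second gene as well and gave no value.

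The study asked how loss of HOTAIRM1, a long non-coding RNA transcribed from the HOXA cluster, alters gene expression while NB4 cells mature. NB4 is a human acute promyelocytic leukaemia line whose PML-RARA fusion protein holds the cells at the promyelocyte stage, and all-trans retinoic acid (ATRA) releases them into granulocytic differentiation. Total RNA was hybridised to 12 Affymetrix ST arrays, which the labels place as 1 untreated and 1 after 96 hours of 0.5 uM ATRA for each of 6 names, called lines below. The control arms joined wild type NB4 cells with replicates 1 and 2 of cells carrying a scrambled shRNA, and the knockdown arms joined replicates 1 and 2 of cells carrying HOTAIRM1 shRNA1 with cells carrying a different construct, HOTAIRM1 shRNA2, so that each of the 4 arms held 3 arrays. All lines with an shRNA were stable lentiviral lines, sorted on GFP and grown from single cells. The design text describes sorting and cloning for the lines with a vector alone, and wild type cells were counted here as a control beside the scrambled lines. Wild type and shRNA2 cells had 1 array per state, and the text does not say whether the numbered duplicates were separate clones, so the p-values measure the spread between these samples, which may be partly clonal or technical. The annotation used here lists no probe set under HOTAIRM1 and leaves others unnamed, and the depth of the knockdown was not checked.

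TRAIL binds the death receptors TNFRSF10A (DR4) and TNFRSF10B (DR5), and FAS ligand binds FAS. The engaged receptor recruits FADD through death domains, FADD recruits procaspase-8 and procaspase-10, and the caspases activate each other in the assembled complex and then cleave effector caspases or the protein BID. TNFRSF10C and TNFRSF10D bind TRAIL without passing on a full death signal and are called decoy receptors, and c-FLIP takes the place of the caspases in the complex. In acute promyelocytic leukaemia cells, TRAIL is known as a gene that retinoic acid can induce, through the transcription factor IRF1.

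Promoter sequences are shown for the ligand, for FAS, and for CASP8 and CFLAR, which lie with CASP10 as adjacent coding genes on chromosome 2, to show which well-known short motifs lie ahead of these genes. They come from RefSeq on GRCh38.p14, through a promoter table that matched 5 of the 10 genes, and each runs 5′ to 3′ on the gene's strand up to the annotated start (the first of several for FAS, CASP8 and CFLAR), with 20 bases past it for CASP8. Capitals mark matches to the motifs searched on both strands, and matches could overlap. The motifs were the paired interferon regulatory factor motif (a pair of GAAA repeats with 2 bases of any kind between them), GGGCGG (SP1), TATAAA (the TATA box), TGANTCA (AP-1) and AGGTCA (a retinoic acid receptor half-site).
TNFSF10, chr3:172523431-172523680, minus strand: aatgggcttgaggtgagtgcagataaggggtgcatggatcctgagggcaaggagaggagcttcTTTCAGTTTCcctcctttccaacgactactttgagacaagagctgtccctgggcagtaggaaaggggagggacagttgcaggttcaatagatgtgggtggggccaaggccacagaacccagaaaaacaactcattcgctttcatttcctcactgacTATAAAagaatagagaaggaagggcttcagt
FAS, chr10:88990548-88990797, plus strand: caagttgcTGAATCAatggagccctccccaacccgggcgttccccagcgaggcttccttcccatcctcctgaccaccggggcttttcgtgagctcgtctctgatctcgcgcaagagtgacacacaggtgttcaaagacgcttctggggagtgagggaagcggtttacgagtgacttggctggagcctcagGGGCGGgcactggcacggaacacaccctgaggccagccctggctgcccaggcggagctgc
CASP8, chr2:201233213-201233482, plus strand: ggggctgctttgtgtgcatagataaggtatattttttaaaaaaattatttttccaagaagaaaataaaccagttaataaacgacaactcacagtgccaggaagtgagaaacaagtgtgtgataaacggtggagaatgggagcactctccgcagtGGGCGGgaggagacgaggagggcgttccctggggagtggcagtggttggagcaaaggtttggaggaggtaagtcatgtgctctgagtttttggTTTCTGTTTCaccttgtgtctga
CFLAR, chr2:201118466-201118715, plus strand: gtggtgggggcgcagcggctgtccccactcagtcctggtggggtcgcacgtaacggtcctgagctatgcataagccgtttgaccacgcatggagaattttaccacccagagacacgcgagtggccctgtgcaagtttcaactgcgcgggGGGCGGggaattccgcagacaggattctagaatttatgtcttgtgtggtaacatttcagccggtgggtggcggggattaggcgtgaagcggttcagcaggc
The TNFSF10 window held the interferon regulatory factor motif on the opposite strand, as TTTCAGTTTC at positions -187 to -178 from the start, and a TATAAA at -31 to -26. The CASP8 window held the same motif as TTTCTGTTTC at -3 to 7 and an SP1 motif at -96 to -91. The TTTCTGTTTC match spans the start and is seen only with the 20 added bases. Windows of the later CASP8 starts did not hold it. They had AP-1 matches at -1 to 6 and at -61 to -55, and a TATAAA at -139 to -134. FAS had TGAATCA at -242 to -236 and an SP1 motif at -60 to -55, and CFLAR had an SP1 motif at -101 to -96. AGGTCA had no match in the stretches shown, and matched on the opposite strand at -2 to 4 of a later CFLAR start. Of 35116 RefSeq windows of 300 bases (250 before and 50 after a start), 3.57% held the interferon regulatory factor motif, 45.0% GGGCGG, 11.5% TATAAA, 7.71% TGANTCA and 13.8% AGGTCA. A match says only that the letters are present in the window.

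Across the 12 arrays the medians of all probe sets lay between 7.73 and 7.81 on the log2 scale, and no detection calls were used. As a measure of background, the 95th percentile of 340 olfactory receptor genes, which blood cells rarely express, was 7.45 to 7.60 on the untreated arrays, 7.75 to 7.78 on the treated control arrays and 7.41 to 7.57 on the treated knockdown arrays. Log2 differences that start or end in or near these ranges can be understated, which touches untreated CASP10, treated FAS and, in control cells, treated TNFRSF10A (7.79 in scrambled replicate 2). The median olfactory receptor difference with ATRA was 0.12 in control cells and 0.01 in knockdown cells. Rises near background in control cells, such as that of CASP10, can therefore also be overstated. The labelled cell type was set against 7 promyelocyte markers, of which 6 were measured: their mean log2 level ran from 10.99 to 11.65 over the untreated arrays and from 10.10 to 11.16 over the ATRA arrays. Of the 6, 1 was called lower with ATRA in control cells (20.9% of all genes) and 2 in knockdown cells (14.7% of all genes). MYB was called in both arms and CTSG in knockdown cells, while MPO, ELANE, PRTN3 and AZU1 were called in neither. Of 7 granulocyte and monocyte maturation markers (7 measured), 6 were called higher with ATRA in control cells (15.2% of all genes) and 7 in knockdown cells (10.1% of all genes). Their mean log2 level was 9.64 on the untreated array of scrambled replicate 2, against 8.61 to 9.06 on the 5 other untreated arrays, so that this array stood toward the treated side before any treatment. The mean of 7 measured lymphoid and natural killer cell markers ran from 7.36 to 7.60 untreated and from 7.50 to 7.67 after ATRA. NKG7 was called higher in both responses and CD8A in control cells. The CD8A levels in control cells, 6.73 to 6.93 untreated and 7.18 to 7.26 treated, lay under the background percentile. The mean of 4 measured erythroid markers ran from 7.35 to 7.57 over all arrays, with ALAS2 called higher in control cells (0.37, limma adjusted p = 0.0115). The ALAS2 levels there, 7.40 to 7.43 untreated and 7.71 to 7.89 treated, lay under or near the background percentile. The part of other cell types in the results below was not tested. These are bulk samples, so a change in the share of cells expressing a gene and a change in RNA per cell cannot be told apart.

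ATRA moved the measured pathway genes in both directions, and the largest called change was in the death receptor TNFRSF10B, about 2-fold higher in both arms. With it rose CASP10 and CFLAR in both arms, and CASP8 in knockdown cells. TNFRSF10A and FADD fell in control cells, and FAS fell in knockdown cells. In control cells 3 of 9 genes rose, 2 fell and 4 did not pass an adjusted p of 0.05 in limma's moderated test, where 15.2% of all 18404 genes rose and 20.9% fell, 36.1% in all. Over all genes that was 2800 higher and 3844 lower, and 1752 higher and 4427 lower after median centring of the arrays. In knockdown cells 4 rose, 1 fell and 4 did not pass, where 10.1% of all genes rose and 14.7% fell, 24.8% in all. The median log2 difference of the 9 genes was 0.43 in control cells and 0.53 in knockdown cells, against 0.05 and -0.03 over all genes. The 3 arrays of one state lay entirely on one side of the 3 of the other for 5 of 9 genes in control cells (48.6% of all genes) and for 6 of 9 in knockdown cells (41.3% of all genes). All 9 genes had the same sign of difference in both arms, but the share of all genes with the same sign was not counted. The control count of 5 was 1 without both wild type arrays. The knockdown count of 5 was 2 without the untreated array of shRNA1 replicate 1, and 3 without the untreated array of shRNA1 replicate 2 or without any 1 of the 3 treated knockdown arrays.

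**Figure D1:**
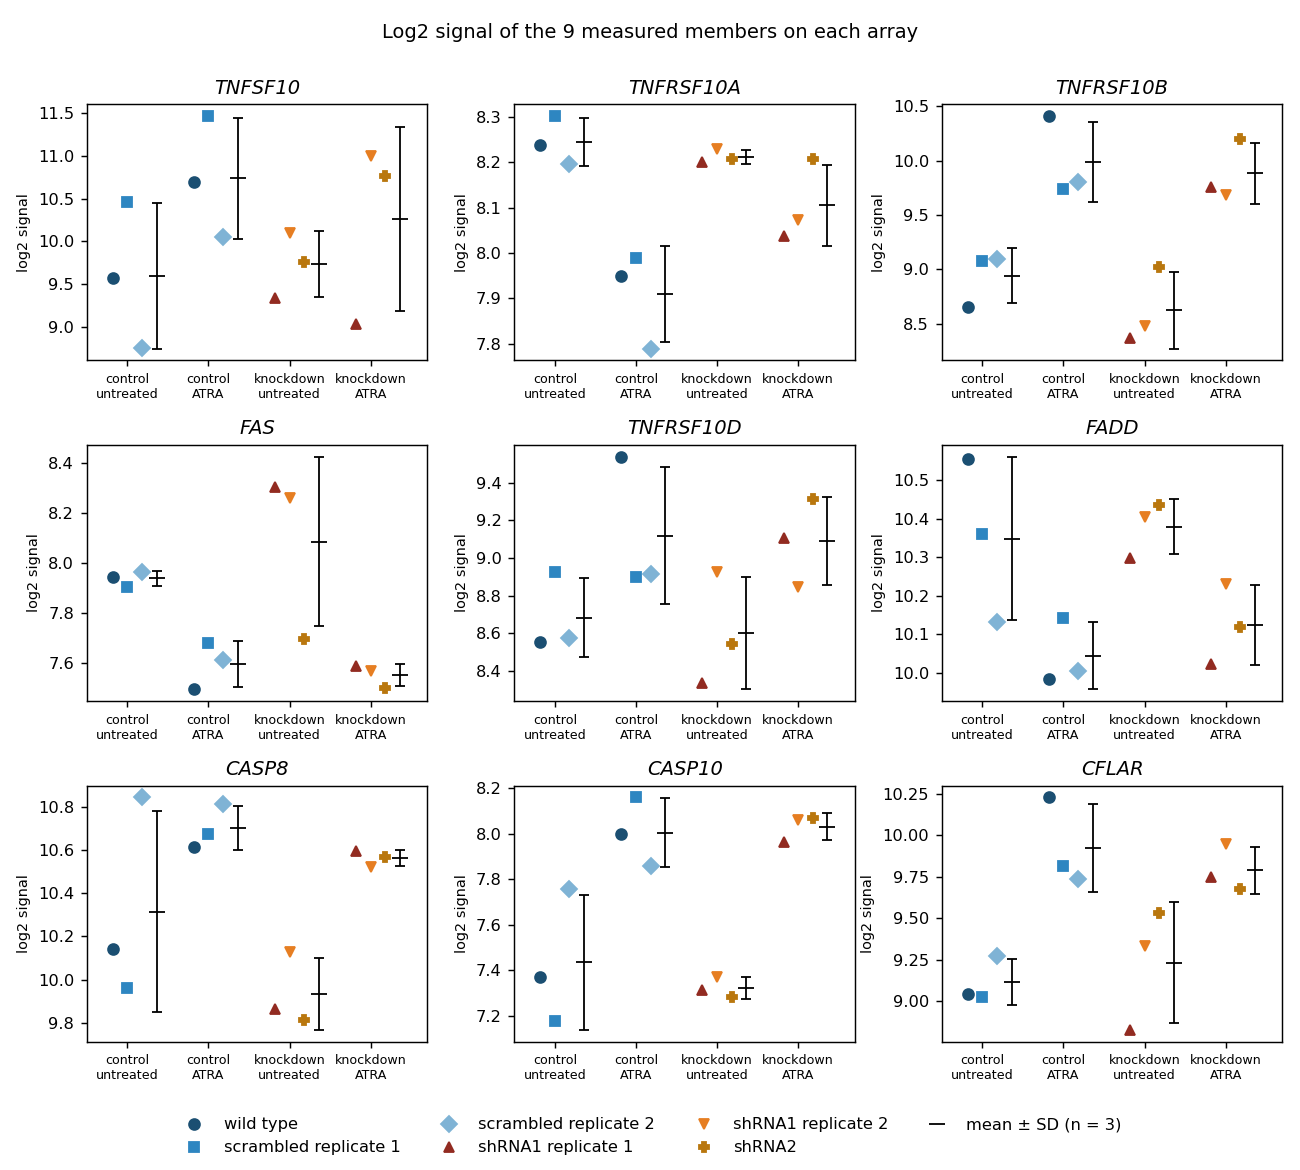
Log2 expression of the 9 measured genes on each of the 12 arrays, 1 panel per gene, with points coloured and shaped by line and, beside each arm, its mean ± SD (n = 3). The vertical axis is the log2 signal, scaled to each gene. TNFRSF10B, CASP10 and CFLAR sit higher after ATRA in both arms, while the TNFSF10 points spread from 8.75 to 11.47.

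TNFSF10 encodes the ligand TRAIL. In the untreated control arm its log2 level was 9.57 in wild type cells, 10.46 in scrambled replicate 1 and 8.75 in scrambled replicate 2, and after ATRA it was 10.70, 11.47 and 10.04 in the same order. The treated and untreated arrays overlapped, since treated scrambled replicate 2 lay below untreated scrambled replicate 1, although the treated array was the higher one in every control line, by 1.13, 1.01 and 1.29. The difference of means was 1.14 (SE 0.54, 95% interval -0.05 to 2.33, 2.21-fold) and did not pass the test (limma adjusted p = 0.119). In the knockdown arm the untreated levels were 9.34, 10.10 and 9.76 in shRNA1 replicate 1, shRNA1 replicate 2 and shRNA2 cells, and the treated levels 9.02, 11.01 and 10.76. The level in shRNA1 replicate 1 was lower by 0.31 after ATRA, and the other two knockdown lines were higher by 0.90 and 1.002. The knockdown difference was 0.53 (SE 0.54, limma adjusted p = 0.556). TNFSF10 spread more within arms than nearly all genes, with a pooled SD of 0.80 on the log2 scale, at percentile 99.6 of the 18404 genes. The control difference was 0.72 without the untreated array of scrambled replicate 2 (limma adjusted p = 0.342) and 1.58 without that of scrambled replicate 1 (limma adjusted p = 0.0517), and with array weights it was 1.33 and passed (limma adjusted p = 0.0307). The knockdown difference was 0.33 without the untreated array of shRNA1 replicate 1, 1.15 without its treated array, 0.16 without treated shRNA1 replicate 2 and 0.28 without treated shRNA2 (limma adjusted p 0.122 to 0.901).

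TNFRSF10B, the death receptor DR5, was higher after ATRA in 6 of 6 lines. Its untreated log2 levels in control cells were 8.65, 9.08 and 9.10 (wild type, scrambled replicates 1 and 2) and its treated levels 10.41, 9.74 and 9.81. In knockdown cells they were 8.37, 8.48 and 9.02 untreated (shRNA1 replicates 1 and 2, then shRNA2) and 9.76, 9.69 and 10.20 treated. Treated and untreated arrays did not overlap in either arm, and the wild type line had both the lowest untreated and the highest treated value of the control lines. The log2 difference was 1.04 in control cells (SE 0.22, 2.06-fold, limma adjusted p = 0.00381) and 1.26 in knockdown cells (SE 0.22, 2.40-fold, limma adjusted p = 0.00185). Without both wild type arrays the control difference was 0.69 and the call was lost (limma adjusted p = 0.0544).

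TNFRSF10A, the death receptor DR4, went the other way with small spread. In control cells its log2 level was 8.24, 8.30 and 8.20 untreated and 7.95, 7.99 and 7.79 after ATRA, with no overlap. In knockdown cells it was 8.20, 8.23 and 8.21 untreated and 8.04, 8.07 and 8.21 after ATRA, so shRNA2 cells showed almost the same level in both states. The difference was -0.34 in control cells (SE 0.08, limma adjusted p = 0.00521) and -0.11 in knockdown cells (SE 0.08, limma adjusted p = 0.367). The pooled within-arm SD was 0.07, at percentile 10.1 of all genes. TNFRSF10A and TNFRSF10B, which bind the same ligand and lie close together on chromosome 8 with only the decoy receptor genes between them among coding genes, were both called in control cells, in opposite directions.

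FAS encodes the receptor for FAS ligand. Control cells gave 7.95, 7.90 and 7.97 untreated and 7.50, 7.68 and 7.61 treated, and knockdown cells 8.30, 8.26 and 7.70 untreated and 7.59, 7.57 and 7.50 treated. The arrays of the 2 states did not overlap in either arm, and both shRNA1 replicates were higher untreated than any other line. FAS fell in knockdown cells by 0.53 on the log2 scale (SE 0.13, limma adjusted p = 0.0121), and the control difference of -0.34 did not pass (SE 0.13, limma adjusted p = 0.0633). The knockdown call was lost without the untreated array of shRNA1 replicate 1 (-0.42, limma adjusted p = 0.0514) or of shRNA1 replicate 2 (-0.45, limma adjusted p = 0.0534). The control difference passed without the untreated shRNA2 array (limma adjusted p = 0.00359), after quantile normalization (-0.43, limma adjusted p = 0.0325) and after median centring (-0.41, limma adjusted p = 0.0363).

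TNFRSF10D, the decoy receptor, gave 8.55, 8.93 and 8.57 in untreated and 9.54, 8.90 and 8.91 in treated control cells. In knockdown cells it gave 8.33, 8.92 and 8.55 untreated and 9.11, 8.85 and 9.31 treated. The level was higher after ATRA in 4 of 6 lines and slightly lower in scrambled replicate 1 and shRNA1 replicate 2, and the states overlapped in both arms. Neither difference passed (0.43, SE 0.20, limma adjusted p = 0.108 in control cells, and 0.49, SE 0.20, limma adjusted p = 0.104 in knockdown cells). The control difference was 0.22 without the treated wild type array (limma adjusted p = 0.379), and the knockdown difference passed in that same fit (limma adjusted p = 0.0481).

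FADD, the adaptor that joins receptors to caspases, had log2 levels of 10.56, 10.36 and 10.13 in untreated and 9.98, 10.14 and 10.00 in treated control cells, with untreated scrambled replicate 2 just under the highest treated array. In knockdown cells it had 10.30, 10.40 and 10.44 untreated and 10.02, 10.23 and 10.12 treated, with no overlap. FADD was lower after ATRA in 6 of 6 lines. It fell in control cells by 0.31 (SE 0.11, limma adjusted p = 0.0402), and the knockdown difference of -0.26 did not pass (SE 0.11, limma adjusted p = 0.104). The control call was lost without any 1 of 6 arrays: untreated wild type (-0.20, limma adjusted p = 0.166), treated wild type (-0.28), untreated scrambled replicate 1 (-0.30), treated scrambled replicate 2 (-0.29), untreated shRNA1 replicate 2 or treated shRNA2, and also after quantile normalization (-0.13, limma adjusted p = 0.353). The knockdown difference passed without untreated scrambled replicate 2 (limma adjusted p = 0.0474).

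**Figure D2:**
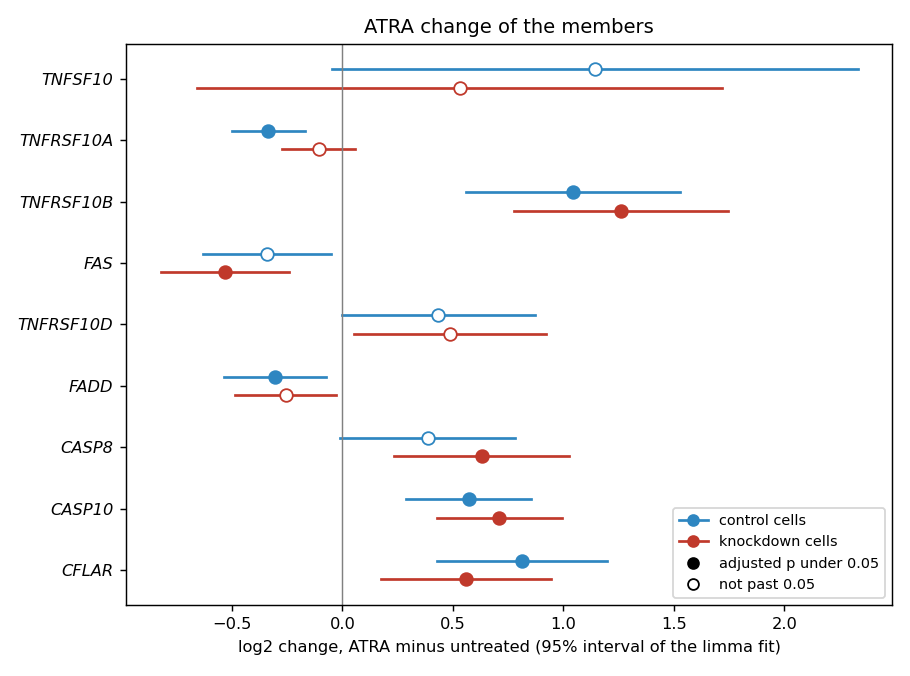
Log2 difference, ATRA minus untreated, of the 9 genes in control and in knockdown cells, with 95% intervals from the limma fit; filled markers have an adjusted p under 0.05 and open markers do not. TNFRSF10B shows the largest called rise in each arm (1.04 and 1.26), and the interval of TNFSF10 is the widest.

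CASP8 and CASP10 encode the initiator caspases of the receptor complex. CASP8 gave log2 levels of 10.14, 9.96 and 10.85 in untreated and 10.62, 10.67 and 10.82 in treated control cells, so untreated scrambled replicate 2 was already above all treated arrays. In knockdown cells it gave 9.86, 10.13 and 9.81 untreated and 10.60, 10.52 and 10.57 treated, with no overlap. CASP8 rose in knockdown cells by 0.63 (SE 0.18, 1.55-fold, limma adjusted p = 0.0243), and the control difference of 0.39 did not pass (SE 0.18, limma adjusted p = 0.114). The control difference was 0.65 without untreated scrambled replicate 2 and then passed (limma adjusted p = 0.000825), was 0.21 without untreated scrambled replicate 1 (limma adjusted p = 0.364), and passed after quantile normalization (0.55, limma adjusted p = 0.0383). The knockdown call was lost without any 1 of 5 of the 6 knockdown arrays, all but untreated shRNA1 replicate 2, with differences of 0.57 to 0.65 (limma adjusted p 0.0563 to 0.0849).

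CASP10 gave 7.37, 7.17 and 7.76 in untreated and 7.997, 8.16 and 7.86 in treated control cells, and 7.31, 7.37 and 7.28 in untreated and 7.97, 8.06 and 8.07 in treated knockdown cells. No array of one state overlapped the other in either arm, and untreated scrambled replicate 2 was again the highest untreated array, as for CASP8. CASP10 rose by 0.57 in control cells (SE 0.13, 1.49-fold, limma adjusted p = 0.00527) and by 0.71 in knockdown cells (SE 0.13, 1.64-fold, limma adjusted p = 0.00217). Without both wild type arrays the control difference was 0.54 (limma adjusted p = 0.0523).

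CFLAR encodes c-FLIP, which resembles caspase-8 but has no protease activity in its long form. Its log2 level was 9.04, 9.03 and 9.27 in untreated and 10.23, 9.81 and 9.73 in treated control cells, and 8.83, 9.33 and 9.53 in untreated and 9.75, 9.95 and 9.67 in treated knockdown cells. No arrays overlapped between states within an arm, and the gap was narrowest in the knockdown arm, where untreated shRNA2 lay just under treated shRNA2. CFLAR rose by 0.81 in control cells (SE 0.18, 1.76-fold, limma adjusted p = 0.00418) and by 0.56 in knockdown cells (SE 0.18, 1.47-fold, limma adjusted p = 0.0366). A second probe set annotated to CFLAR was read from a separate fit, adjusted over all 19158 probe sets annotated to 1 gene. Its differences were larger and in the same direction. They were 1.46 in control cells (SE 0.29, limma adjusted p = 0.00253) and 1.18 in knockdown cells (SE 0.29, limma adjusted p = 0.0109). The control call was lost without both wild type arrays (0.63, limma adjusted p = 0.057). The knockdown call was lost without any 1 of 5 of the 6 knockdown arrays, all but untreated shRNA2: 0.36 without untreated shRNA1 replicate 1 (limma adjusted p = 0.133) and 0.48 to 0.62 without the others (limma adjusted p 0.0586 to 0.128).

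The knockdown itself was then compared within each state. Before treatment, 0 of 9 genes passed in limma (0% of all genes), 0 of 9 had an unadjusted p under 0.05 (3.95% of all genes), and every adjusted p was 0.999. For 0 of 9 genes were the 3 arrays of one arm all above those of the other (7.79% of all genes). The difference of largest size, knockdown minus control, was that of CASP8, -0.38 (SE 0.18, 95% interval -0.78 to 0.02), followed by TNFRSF10B, -0.32 (SE 0.22, 95% interval -0.81 to 0.16). After ATRA, 0 of 9 passed in limma (0.0598% of all genes passed), and 1 of 9, TNFRSF10A, had an unadjusted p under 0.05 (28.1% of all genes). The treated TNFRSF10A levels were higher in all 3 knockdown lines than in all 3 control lines, by 0.20 (SE 0.08, 95% interval 0.03 to 0.36, unadjusted p = 0.0237 and adjusted p = 0.125 in limma). The treated arms also did not overlap for CASP8 (-0.14, SE 0.18), so 2 of 9 genes were separated, where 35.1% of all genes were. TNFSF10 differed after ATRA by -0.47 (SE 0.54, 95% interval -1.66 to 0.72, limma adjusted p = 0.588).

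The difference between the ATRA responses asks whether the knockdown changed how a gene answered ATRA. For this contrast 0 of 9 genes passed in limma (0% of all genes), and 0 of 9 had an unadjusted p under 0.05 (15.3% of all genes). The TNFSF10 response differed by -0.61 on the log2 scale in knockdown cells (SE 0.77), with a 95% interval of -2.29 to 1.07, which is wider than the control response of 1.14 itself. For TNFRSF10A, whose fall passed in control cells alone, the responses differed by 0.23 (SE 0.11, 95% interval -0.0043 to 0.46, limma adjusted p = 0.332). Those of FAS differed by -0.19 (95% interval -0.60 to 0.22) and those of CASP8 by 0.24 (95% interval -0.32 to 0.80), so calls made in one arm alone were not shown to differ between the arms.

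**Figure D3:**
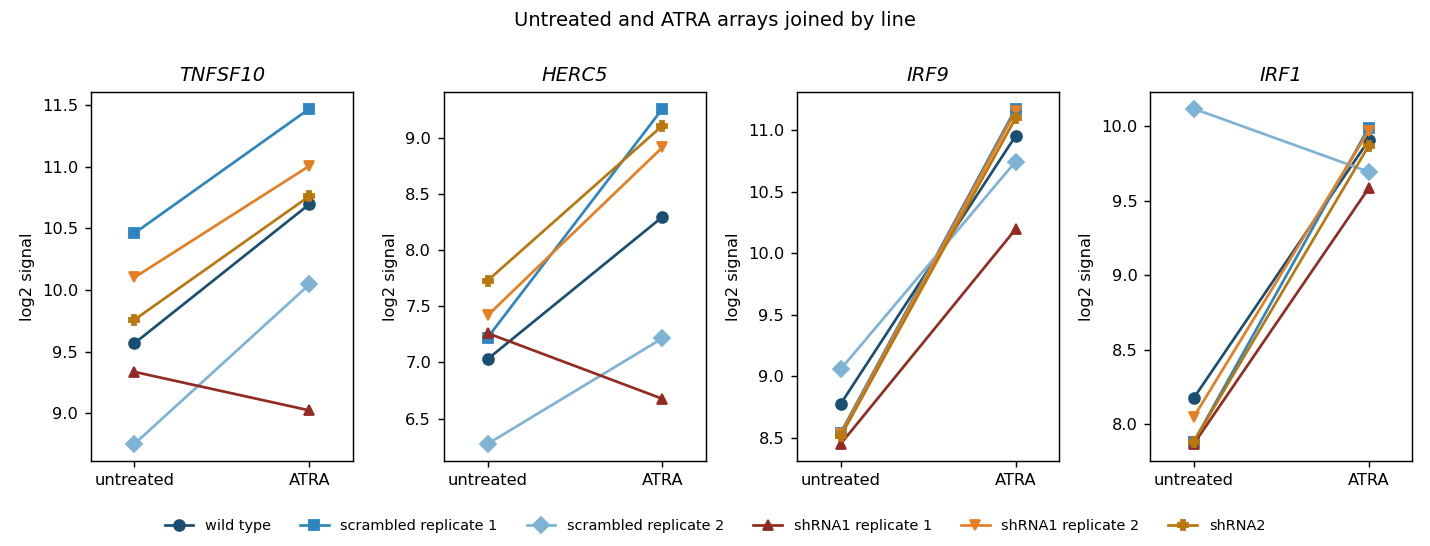
Untreated and ATRA-treated log2 levels of TNFSF10, HERC5, IRF9 and IRF1 joined within each of the 6 lines (vertical axes, log2 signal scaled to each gene), control lines in blues and knockdown lines in red, orange and brown. The shRNA1 replicate 1 line goes down for TNFSF10 and HERC5 while the others go up, and scrambled replicate 2 starts at 10.12 for IRF1. Both HERC5 levels of shRNA1 replicate 1 and of scrambled replicate 2 lie under the background percentile. The untreated HERC5 levels of wild type, scrambled replicate 1 and shRNA1 replicate 2 do so too.

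Genes that share the array pattern of the members with the widest ranges of arm means were listed as a description, by Pearson's r over the 12 arrays, which share the treatment and the lines. For TNFSF10 (range of arm means 1.14) they were HERC5 (0.91), DPRX (0.89), IL4R (0.88), CRHBP (0.86) and SLC35F6 (0.86). HERC5, an interferon-induced ligase for ISG15, went from 7.26 to 6.68 in shRNA1 replicate 1 on the log2 scale. Its 5 other treated arrays ran from 7.21 to 9.26, all higher than that one. Both shRNA1 replicate 1 values lay under the background percentile of their arrays (7.49 and 7.52), so the size of that fall is uncertain. The untreated levels of all other lines but shRNA2 (6.27 to 7.42) lay under it too. So did treated scrambled replicate 2 (7.21 against 7.78), and the sizes of the rises in these lines are uncertain as well. CRHBP lay under the background percentile on every untreated array (6.58 to 7.19). It also did so on the treated arrays of scrambled replicate 2 and shRNA1 replicate 1. DPRX (7.21 to 7.48) lay under it on both arrays of those 2 lines and on untreated wild type and shRNA2. For TNFRSF10B (range of arm means 1.37) the closest genes were WSB2 (0.97), LPXN (0.97), SEC14L1 (0.96), PHLDA1 (0.96) and MILR1 (0.96).

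Among 13 transcription factors known to act on one or more of these genes, 9 were measured. In control cells 4 rose and 0 fell, and in knockdown cells 7 rose and 0 fell, with medians of 0.78 and 0.74 on the log2 scale against 0.05 and -0.03 over all genes. The shares over the whole array were 15.2% higher and 20.9% lower in the control response, and 10.1% higher and 14.7% lower in the knockdown response. RARB, a retinoic acid receptor gene that is itself a classic retinoid target, rose by 2.46 (SE 0.33, limma adjusted p = 0.000252) in control cells and by 2.72 (SE 0.33, limma adjusted p = 0.000372) in knockdown cells. Its untreated levels, 6.07 to 6.82, lay under the background percentile, so the size of its rise is uncertain. IRF9, an interferon regulatory factor, rose by 2.17 and 2.32 (SE 0.22 each), and IRF7, a further interferon regulatory factor, by 0.78 and 0.74 (SE 0.13 each). After ATRA IRF9 stood at 10.20 in shRNA1 replicate 1 and at 10.75 to 11.18 in the other lines. That line thus had the lowest treated level of IRF9 as of TNFSF10, and a link between the genes was not tested.
IRF1, an activator of the TRAIL gene, gave 8.18, 7.88 and 10.12 in untreated control cells and 9.90, 9.99 and 9.69 after ATRA. Untreated scrambled replicate 2 was thus above every treated array, and it was the line with the lowest TNFSF10 level of the untreated arrays. Untreated knockdown cells had 7.87, 8.05 and 7.88 and treated ones 9.58, 9.97 and 9.87. IRF1 rose in knockdown cells by 1.87 (SE 0.42, limma adjusted p = 0.00739), and the control difference of 1.14 did not pass (SE 0.42, limma adjusted p = 0.0552). DDIT3, the stress factor CHOP and a known activator of TNFRSF10B, rose by 0.87 in control cells (SE 0.31, limma adjusted p = 0.0488). In knockdown cells it rose by 1.03 (SE 0.31, limma adjusted p = 0.0324). The control states overlapped for DDIT3, and in scrambled replicate 2 it was lower after ATRA, by 0.21. Whether IRF9, IRF1, DDIT3 or the other listed factors acted on any member gene here was not tested.

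The pathway's other components were read from a list of 39 genes, 33 of them measured. In control cells 7 rose, 8 fell and 18 did not pass (median 0.09), and in knockdown cells 9 rose, 8 fell and 16 did not pass (median -0.01), so that 15 and 17 of 33 were called where 36.1% and 24.8% of all genes were. Of these, 5 rose and 8 fell in both arms, and 0 were called in opposite directions, but the share of all genes called in both arms was not counted. The knockdown count of 17 was 11 without the untreated shRNA2 array and 6 without both shRNA2 arrays. Among 12 partners and regulators of the receptor complex, 5 rose and 3 fell in each arm. BIRC2, the ubiquitin ligase cIAP1, rose by 0.63 in control cells (SE 0.11, limma adjusted p = 0.00104) and by 0.80 in knockdown cells (SE 0.11, limma adjusted p = 0.000556). The deubiquitinase genes CYLD and TNFAIP3 (A20), which restrain NF-κB signalling, rose by 1.19 and 1.31 in control cells and by 1.40 and 1.45 in knockdown cells. FAF1, a FAS-associated factor, fell by 0.59 in control cells (SE 0.08, limma adjusted p = 0.000212) and by 0.36 in knockdown cells (SE 0.08, limma adjusted p = 0.00504).
Downstream of the initiator caspases, among 12 measured genes, 5 fell in both arms: CYCS, CASP6, HTRA2, DFFA and DFFB. CYCS, which encodes cytochrome c, fell by 0.45 in control cells (SE 0.08, limma adjusted p = 0.00113) and by 0.43 in knockdown cells (SE 0.08, limma adjusted p = 0.00223). The effector caspase gene CASP6 fell by 0.65 in control cells (SE 0.11, limma adjusted p = 0.0012) and by 0.36 in knockdown cells (SE 0.11, limma adjusted p = 0.0382), but its treated control levels of 7.31 to 7.53 lay under the background percentile. In knockdown cells 3 were called higher, namely CASP9 (0.89), APAF1 (0.81) and the caspase inhibitor gene XIAP (0.33). In control cells 0 were called higher, and the differences of these genes, 0.28, 0.41 and 0.11, did not pass. For the difference between the ATRA responses, 0 of 33 partners passed in limma (0% of all genes). The unadjusted p was under 0.05 for 0 of 33 (15.3% of all genes). A differing response of these genes was thus not shown. Among 9 other ligands and receptors of the family, TNFSF15 rose in both arms (1.11 and 0.95). Its untreated levels of 6.99 to 7.34 lay under the background percentile. TNFRSF1B was called higher in control cells (0.61, limma adjusted p = 0.0493), by 1.42 in wild type and by 0.39 and 0.02 in scrambled replicates 1 and 2. The knockdown difference of TNFRSF1B was similar and did not pass (0.58, limma adjusted p = 0.0785). Of the 9 genes, 7 in control cells and 8 in knockdown cells did not pass. HTRA2, DFFA, DFFB, CASP9, APAF1, XIAP, TNFSF15 and TNFRSF1B are named after their values were seen.

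**Figure D4:**
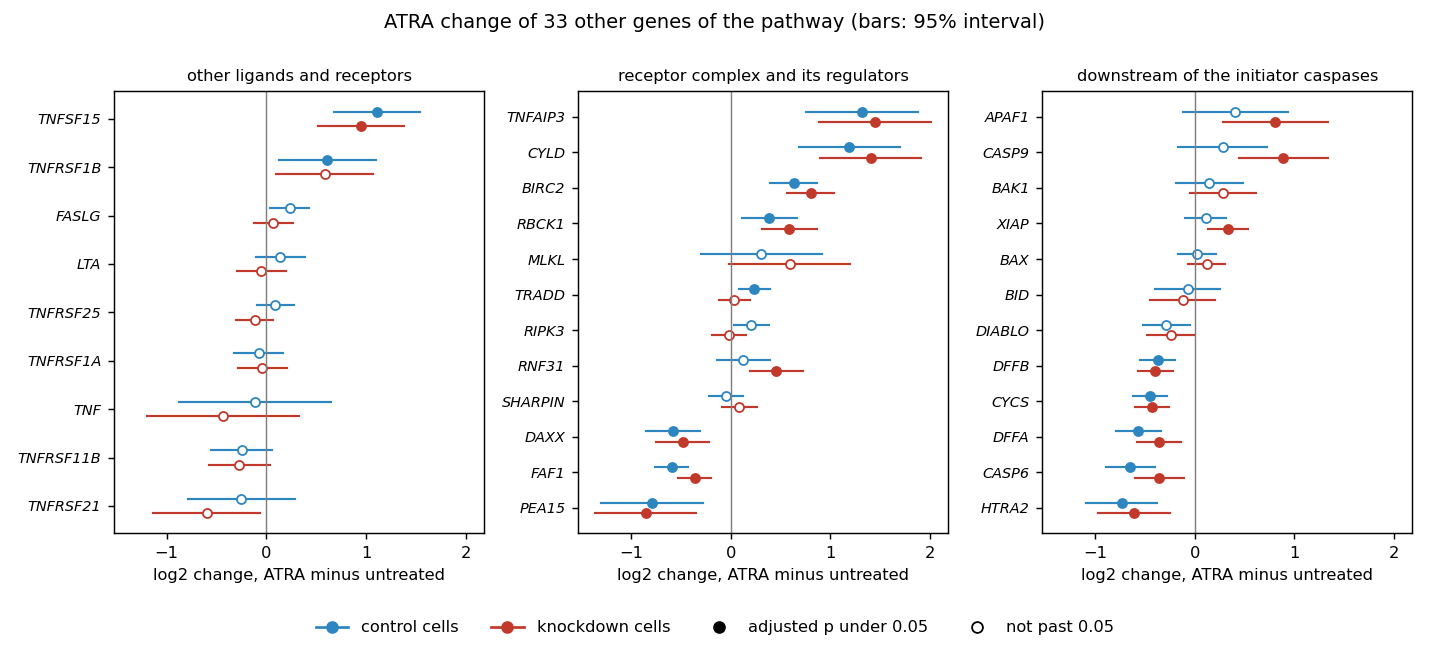
Log2 difference (horizontal axis, ATRA minus untreated) of the 33 measured partners in 3 panels by role, with 95% intervals of the limma fit, control cells in blue, knockdown cells in red, and filled markers where the adjusted p is under 0.05. TNFAIP3, CYLD and BIRC2 lie to the right in both colours, and FAF1, CYCS and CASP6 to the left.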

How the data were processed

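Total RNA of 12 NB4 samples was labelled with biotin and hybridised to Affymetrix ST arrays. The authors deposited values on a log2 scale, and the submitters' processing notes name RMA and limma, without versions. The values were used as deposited. Of 32321 probe sets, 19158 were annotated to 1 gene, which gave 18404 genes after the probe set with the highest mean was kept for each. No gene was filtered for a low value. limma 3.58.1 in R 4.3.3 fitted 4 arm means (8 residual degrees of freedom) with eBayes, and two-sided p-values were adjusted by Benjamini-Hochberg over all 18404 genes within a contrast, with a threshold of 0.05. Intervals are 95% intervals of that fit, and the number of arrays limits their precision. An exact test of 3 against 3 arrays cannot give p below 0.1. The genes, lists and comparisons were chosen with earlier results of these data known. Named genes are all measured members and, from the partner list and the regulator list, the 4 with the smallest p in each ATRA response; for the 2 members with the widest range of arm means, the 5 genes with the highest correlation were listed. Other partners and markers named in the text were chosen after their values were seen. Alternatives were the line as a block, quantile normalization, median centring, a filter on low genes, another probe set, other eBayes settings, array weights, and arrays or lines left out. The script was tested on simulated data. A motif that was also searched is not reported here.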

Additional observations from a re-analysis of the deposited data

How the results depend on the processing

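Under 23 alternatives, 0 of the 9 genes passed in any of the 3 comparisons that involve the knockdown; signs of uncalled values changed in 14, 17 and 16 of 207 values there, and in 0 of 207 in either ATRA response. The control call of TNFRSF10A and the knockdown calls of TNFRSF10B and CASP10 held in all 23. With 1 array left out, 4 to 6 members were called in control cells and 2 to 6 in knockdown cells (5 in each main fit), and 11 to 21 and 11 to 20 partners (15 and 17). Array weights gave 8 members called in control cells, and leaving out both wild type arrays gave 1. Without both shRNA2 arrays 6 partners were called in knockdown cells. Without both arrays of shRNA1 replicate 1, an alternative chosen after seeing the data, 2 members and 11 partners were called in knockdown cells, and TNFSF10 there differed by 0.95 (limma adjusted p = 0.273). The control difference of TNFSF10 ran from 0.72 to 1.58 and the knockdown difference from 0.16 to 1.15 with 1 array left out; the control difference passed with array weights (1.33, limma adjusted p = 0.0307). With the line as a replicate block the control difference of TNFSF10 stayed 1.14 and passed (limma adjusted p = 0.00711), and 6 members were called in control cells against 5. Deviations of the same line from its arm means correlated at -0.17 and -0.11 for wild type and scrambled replicate 1 and at 0.12 to 0.23 for the 4 other lines; each of those 4 correlated best with itself, and the first 2 did not, so the pairing was not taken as given. Without both arrays of scrambled replicate 2, also chosen after seeing the data, 6 members were called in control cells and 5 in knockdown cells. Median centring moved the calls over all genes in control cells from 2800 higher and 3844 lower to 1752 higher and 4427 lower. The cause of these changes was not tested. Signal near background limits CASP10, FAS and TNFRSF10A among the members, as given with the array values.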
